A study of Mus musculus with 6 samples.

Results

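The nuclear receptor genes of mouse hepatocytes were compared between mice with induced miR-143 and wildtype littermates. The set held 43 genes of the 20416 in the table, taken from a written list of nuclear receptors that leaves out the Rev-erb genes Nr1d1 and Nr1d2. Each gene was read as the mean log2 intensity of the probe sets that the platform annotation gives to that gene alone, which came to 470 probe sets, from 2 to 17 per gene (median 11).

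The miR-143DOX group was 3 adult C57BL/6 mice with a doxycycline-inducible allele of the microRNA miR-143, and the control group 3 wildtype littermates. Mice of both groups drank 4 mg/ml doxycycline with 10% sucrose for 8 days, so the drug and the sugar were common to the groups. The promoter and the cells in which the allele is induced are not stated in the labels used here, and the level of miR-143 was not analysed here. Hepatocytes were taken by collagenase perfusion of the liver, and RNA of each mouse went on its own Affymetrix whole-transcript array.

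Nuclear receptors are transcription factors, most of which are switched by small fat-soluble ligands such as thyroid hormone, retinoids, steroids, fatty acids, oxysterols and bile acids. Most bind DNA through a pair of zinc fingers, many of them as a dimer with a retinoid X receptor (RXR), and they exchange corepressors for coactivators when the ligand binds. In the liver they set the rates of fat oxidation, lipogenesis, bile acid synthesis and drug metabolism, and several are made in a daily rhythm.

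The 6 arrays correlated with each other at r of 0.936 to 0.954 over all probe sets. All 12 hepatocyte markers tested lay above background (64.3% of all 20416 genes did). Their list mean was 12.6 to 12.7 log2 units in each control array and 12.6 to 12.7 in each miR-143DOX array. Markers of sinusoidal endothelium (12 of 12 above background), Kupffer cells (11 of 11) and stellate cells and fibroblasts (9 of 10) were also read, at list means of 7.70 to 7.85 against 7.39 to 7.87, 7.08 to 7.17 against 6.998 to 7.33, and 6.76 to 6.83 against 6.75 to 7.03 (control against miR-143DOX). Of 4 cholangiocyte markers tested 3 lay above background, and 1 of 3 lymphocyte and neutrophil markers. Of the endothelial markers 11 of 12 lay below 0 in the difference of groups (median -0.12) and 1 above (52.4% of all genes lay above). Of these 12, 1, Clec4g, had an unadjusted limma p under 0.05, on the lower side (1.68% of all genes). So did 1 of 12 hepatocyte markers, Serpina1a at -0.98 (standard error 0.37, read by 1 probe set). Among the 4 cholangiocyte markers it was Spp1, at -0.32 (standard error 0.14). The part of these cell types in the receptor values was not tested. In RNA of a cell preparation, fewer cells of a type and less RNA per cell cannot be told apart.

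None of the nuclear receptor genes met a 5% false discovery rate (FDR). Of the 43 genes, 38 were bright enough to be tested and 5 (Hnf4g, Nr2f1, Pgr, Nr0b1 and Rorb) fell under the intensity filter, which left out the lowest 25% of genes, below 5.06 log2 units. The table has no detection call. As a description of background, 95% of 982 olfactory receptor genes, which hepatocytes are not expected to express, had a mean under 5.52. Of the 43 receptors, 33 lay above that value, against 64.3% of all 20416 genes. The mean over probe sets of 5 that were tested did not lie above it (Vdr, Nr2e3, Esr2, Esrrb and Nr4a3). Each of these 5 still had single probe sets above it, 6 of 12 for Vdr, 5 of 11 for Nr2e3, 4 of 12 for Esr2, 4 of 7 for Esrrb and 4 of 10 for Nr4a3.

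In limma's moderated test 0 of 38 receptors passed, against 0.00% of the 15312 genes tested, and the smallest adjusted p of a receptor was 0.9997. At an unadjusted p under 0.05 there were 3 of 38, against 3.06% of all genes. All 3 were higher in miR-143DOX (1.38% of all genes) and 0 were lower (1.68%). The groups did not overlap for 4 of 38, against 7.13% of all genes. These 4 were higher in miR-143DOX (3.40% of all genes), and 0 were lower (3.73%). Of the 38, 22 lay above 0, against 52.4% of all genes. The median difference (miR-143DOX minus control) was 0.06 log2 units, against 0.01 for all genes, and turned to -0.01 without control replicate 2.

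The differences of the 38 ran from -0.39 to 0.51, and 32 lay within 0.25 log2 units of 0. A receptor's 95% interval reached a median of 0.34 to either side of its difference, from 0.28 to 0.64. For 37 of 38 genes the whole interval lay within 1 log2 unit of 0, and for Nr4a1 it reached 1.15. For those 37 a 2-fold change of the mean intensity lay outside the interval. The intervals are of intensity averaged over bright and dim probe sets. They do not exclude a 2-fold change of transcript, least of all for the 5 tested receptors at or below the background value. For 35 of 38 the interval held 0.

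**Figure D1:**
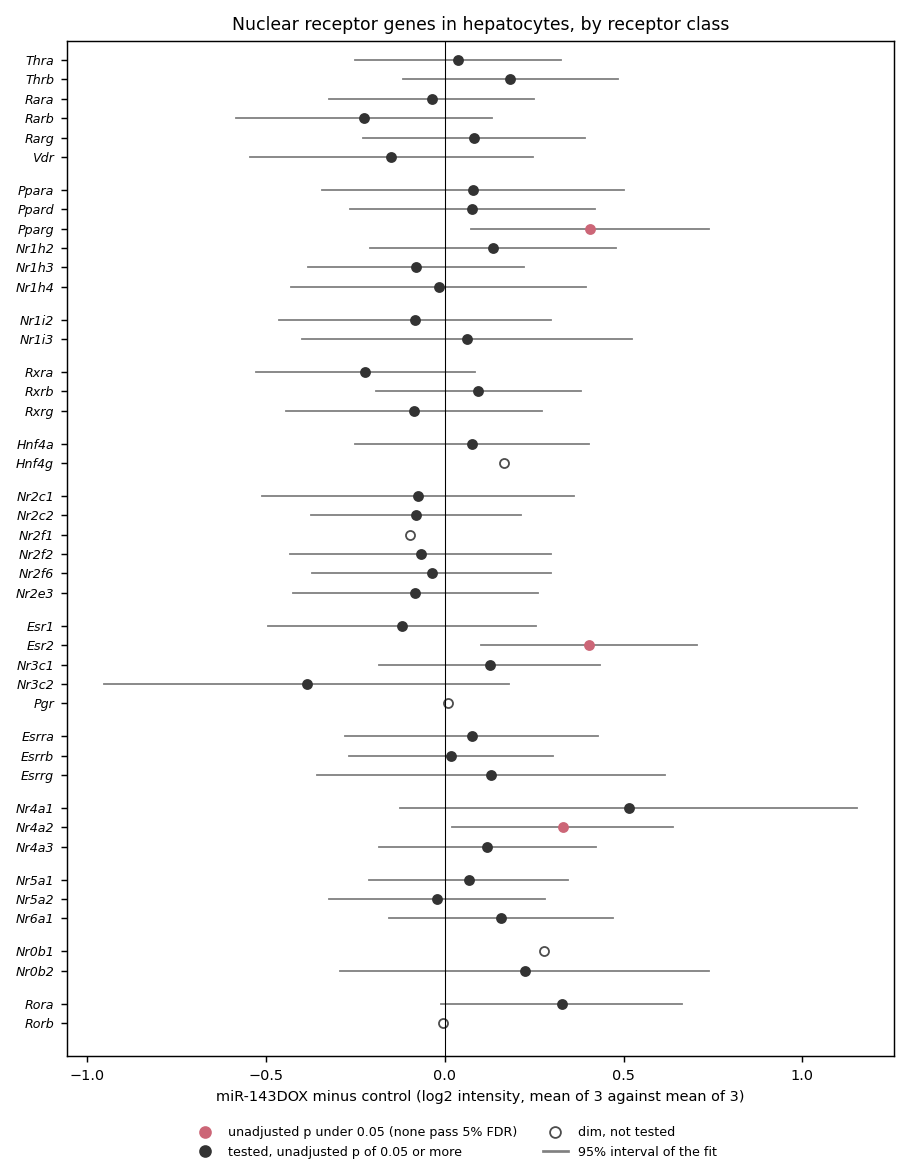
Difference between miR-143DOX and control means for the 43 nuclear receptor genes, in log2 intensity (x axis), grouped by receptor class from top to bottom. Lines are 95% intervals of limma's fit for the 38 tested genes and open circles are the 5 dim genes. The intervals of Pparg, Esr2 and Nr4a2 lie to the right of 0, and none of the 3 passed 5% FDR.

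Pparg of the lipid sensors, Esr2 of the steroid receptors and Nr4a2 of the NR4A group were the 3 receptors at an unadjusted p under 0.05. Pparg encodes PPARgamma, the fatty acid receptor known for fat cell formation and for lipid storage in fatty liver. It read 6.41, 6.22 and 5.93 in the control mice and 6.62, 6.47 and 6.69 in the miR-143DOX mice, replicates 1 to 3 in each group. Every miR-143DOX mouse was above every control mouse, with the gap between control replicate 1 and miR-143DOX replicate 2 the narrowest. The means were 6.59 ± 0.11 and 6.19 ± 0.24 (miR-143DOX and control, log2 intensity, SD, n = 3 each). The difference was 0.41 (95% interval 0.07 to 0.74, 1.32-fold), with an unadjusted limma p of 0.0208.

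The Pparg difference was not even over its probe sets. Of 13, 11 lay above 0, from -0.29 to 1.37, and the brightest lay at 0.10. With the gene read as the median of its probe sets in each array the difference was 0.19, and without control replicate 3, which was the lowest array, it was 0.28. These 3 readings had an unadjusted p of 0.347 (median), 0.74 (brightest probe set) and 0.107 (without control replicate 3) in limma.

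The other 5 lipid and bile acid sensors lay close to 0. Ppara, the fatty acid receptor that switches on fat oxidation in fasting, read 10.13, 9.40 and 9.50 in control and 9.62, 9.66 and 9.98 in miR-143DOX mice. Control replicate 1 was the highest of the 6 and control replicate 2 the lowest, so the miR-143DOX values lay inside the control range. The difference was 0.08 (95% interval -0.34 to 0.50). Ppard, the broadly expressed PPAR, differed by 0.08 as well (-0.27 to 0.42).

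Nr1h4, the bile acid receptor FXR, read 9.82, 9.54 and 9.67 in control and 9.23, 9.73 and 10.02 in miR-143DOX mice. Here the miR-143DOX mice held both the lowest and the highest value. The difference was -0.02 (-0.43 to 0.40). Nr1h3, the oxysterol receptor LXRalpha, read 9.03, 8.82 and 8.73 against 8.88, 8.66 and 8.80, at a difference of -0.08 (-0.38 to 0.22). The groups overlapped. Nr1h2, the widely expressed LXRbeta, differed by 0.13 (-0.21 to 0.48).

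The 2 xenobiotic sensors, which induce drug-metabolizing enzymes, did not differ beyond their spread. Nr1i2, the pregnane X receptor PXR, read 9.36, 9.28 and 9.09 in control and 9.54, 9.03 and 8.91 in miR-143DOX mice, at a difference of -0.08 (-0.46 to 0.30). Nr1i3, the constitutive androstane receptor CAR, read 9.46, 8.58 and 9.20 in control and 8.87, 9.26 and 9.29 in miR-143DOX mice, at 0.06 (-0.40 to 0.52). In Nr1i3 the control mice alone spanned the full range of the 6 values. Of its 10 probe sets 6 lay below 0. The highest, at 1.71, had a level of 3.79, below the background value. The brightest probe set gave -0.15, and the median over probe sets gave -0.06.

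Of the RXR partners, Rxra, the main RXR of the liver, read 9.47, 9.14 and 9.30 in control and 8.99, 9.04 and 9.22 in miR-143DOX mice. A pair of miR-143DOX values lay below all control values, and miR-143DOX replicate 3 lay among them. The difference was -0.22 (-0.53 to 0.08), of which 13 of 15 probe sets showed the sign, but it was 0.02 with the median over probe sets. Rxrb differed by 0.09 (-0.19 to 0.38) and Rxrg by -0.09 (-0.44 to 0.27).

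Hnf4a, the receptor that keeps hepatocytes differentiated, read 10.50, 10.92 and 10.80 in control and 10.90, 10.88 and 10.67 in miR-143DOX mice, at a difference of 0.08 (-0.25 to 0.40). Control replicate 1 was its lowest array, the reverse of Ppara. Nr5a2, the liver receptor homolog LRH-1 that acts on bile acid genes, read 8.73, 8.85 and 9.08 against 8.80, 8.88 and 8.92 and differed by -0.02 (-0.33 to 0.28). The miR-143DOX mice lay within the control range. The NR5A and NR6A genes Nr5a1 and Nr6a1, known for the adrenal gland and germ cells, lay at 0.07 (-0.21 to 0.35) and 0.16 (-0.16 to 0.47).

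Nr0b2 encodes SHP, a receptor without a DNA-binding domain that represses bile acid synthesis. It read 8.32, 7.26 and 7.94 in control and 8.19, 7.76 and 8.24 in miR-143DOX mice, at a difference of 0.22 (-0.29 to 0.74). Control replicate 2 was low, and without that array the difference turned to -0.07. Only 1 of its 4 probe sets lay above 0, at 1.15, and the level of that probe set, 4.34, was below the background value. The 3 probe sets above background lay from -0.14 to -0.05. Its relative Nr0b1, known as DAX1 from the adrenal gland, read 4.71, 4.59 and 4.70 against 4.81, 5.13 and 4.89 over 2 probe sets. Those groups were separate, but the gene lay under the filter and was not tested.

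**Figure D2:**
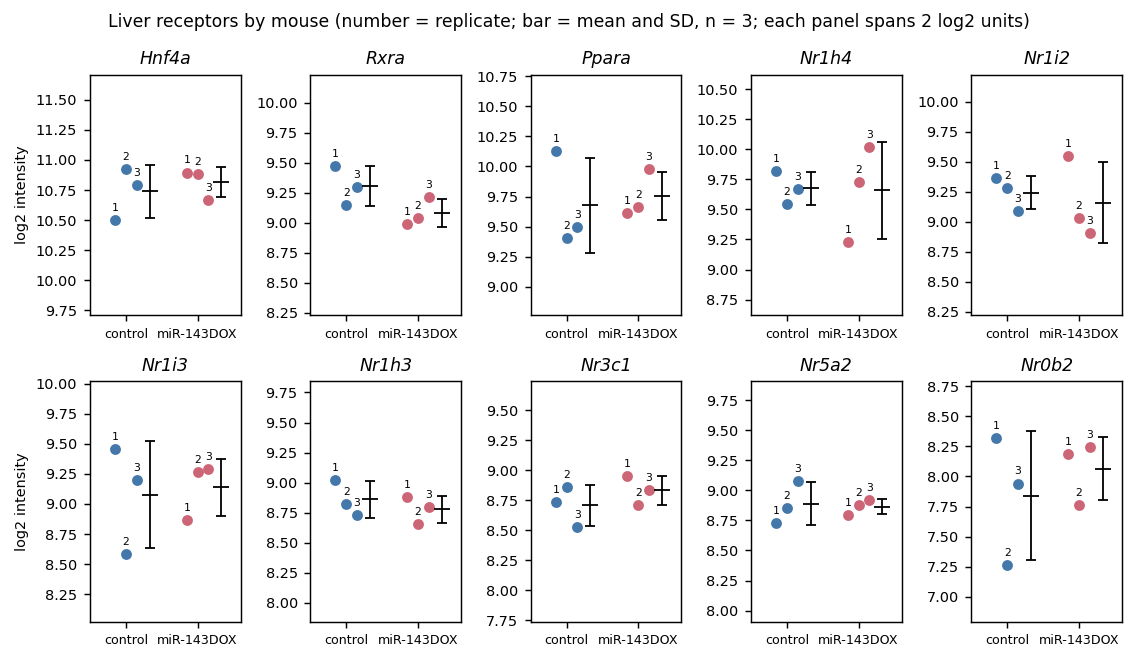
Log2 intensity of 10 receptors well known in the liver in each mouse (y axis, each panel spans 2 log2 units), with control in blue, miR-143DOX in red, replicate numbers above the points and mean ± SD beside them (n = 3). The groups overlap in all 10 panels, and control replicate 1 is the highest array for Ppara and the lowest for Hnf4a.

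Of the steroid receptors, Esr2 had the smallest p of all 38 receptors and was also dim. Esr2, the estrogen receptor beta, read 5.12, 5.21 and 5.24 in control and 5.76, 5.60 and 5.42 in miR-143DOX mice. The control mice lay close together and below every miR-143DOX mouse. The means were 5.59 ± 0.17 and 5.19 ± 0.06 (miR-143DOX and control, SD, n = 3 each). The difference was 0.40 (0.10 to 0.70, 1.32-fold), with an unadjusted limma p of 0.0131. Its mean over the 6 arrays lay below the 5.52 of the olfactory receptor genes, only 4 of the 12 probe sets lay above it, and the brightest gave 0.27. The median over probe sets gave 0.69 (unadjusted limma p of 0.00315). The probe sets in the middle by mean level lay at 5.15 and 4.91, below the background value, with differences of 1.05 and 1.14. The 4 above that value gave 0.06 to 0.49. The unadjusted limma p was 0.197 with the brightest probe set, 0.0664 without miR-143DOX replicate 1, and 0.13 when the pair of arrays with the extreme clock values (Dbp minus Arntl) was left out. With the lowest 40% of genes left out, Esr2 was no longer tested.

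Esr1, the estrogen receptor alpha, which is the form known in hepatocytes, differed by -0.12 (-0.49 to 0.26). Nr3c1, the glucocorticoid receptor, read 8.74, 8.86 and 8.53 in control and 8.95, 8.71 and 8.83 in miR-143DOX mice, at 0.13 (-0.18 to 0.43). Nr3c2, the mineralocorticoid receptor, read 7.75, 7.12 and 7.65 in control and 6.70, 6.87 and 7.79 in miR-143DOX mice. In miR-143DOX mice, replicates 1 and 2 lay below all controls and replicate 3 above them all. The Nr3c2 difference of -0.39 (-0.95 to 0.18) was the lowest among the receptors, with 8 of 8 probe sets below 0, against means of 7.12 ± 0.59 and 7.51 ± 0.34 (SD, n = 3 each). Leaving out miR-143DOX replicate 3 gave -0.72, and leaving out replicate 1 of that group gave -0.18.

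The 3 NR4A genes lay above 0, at a median of 0.33, which no other class with 3 tested members reached. Nr4a1 (Nur77), Nr4a2 (Nurr1) and Nr4a3 (Nor1) are receptors without a classical ligand pocket, and their genes are immediate early genes that respond within minutes to cyclic AMP, glucagon, growth factors and cell stress. All 3 have cyclic AMP responsive promoters as background knowledge, so the bases before their start sites are shown, with the TGACG core of the cyclic AMP response element in capitals wherever it stands on either strand (CGTCA is the same core read on the other strand). The sequences are RefSeq's of build GRCm38.p6, 5′ to 3′ on the strand of the gene, and each is the 250 bases upstream of the start site. They lie at chr15:101266596-101266845 (plus strand) for Nr4a1, chr2:57124004-57124253 (minus strand) for Nr4a2 and chr4:48045055-48045304 (plus strand) for Nr4a3.
Nr4a1: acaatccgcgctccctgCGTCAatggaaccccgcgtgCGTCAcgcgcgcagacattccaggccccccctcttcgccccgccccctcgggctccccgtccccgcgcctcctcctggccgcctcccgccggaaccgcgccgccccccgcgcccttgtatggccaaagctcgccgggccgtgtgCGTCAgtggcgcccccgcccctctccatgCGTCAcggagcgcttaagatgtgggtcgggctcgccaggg
Nr4a2: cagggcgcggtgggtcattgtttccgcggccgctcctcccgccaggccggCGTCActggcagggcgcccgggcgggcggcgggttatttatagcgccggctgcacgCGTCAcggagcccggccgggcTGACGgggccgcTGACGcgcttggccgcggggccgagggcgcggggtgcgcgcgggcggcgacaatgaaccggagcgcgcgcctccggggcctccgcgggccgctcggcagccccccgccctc
Nr4a3: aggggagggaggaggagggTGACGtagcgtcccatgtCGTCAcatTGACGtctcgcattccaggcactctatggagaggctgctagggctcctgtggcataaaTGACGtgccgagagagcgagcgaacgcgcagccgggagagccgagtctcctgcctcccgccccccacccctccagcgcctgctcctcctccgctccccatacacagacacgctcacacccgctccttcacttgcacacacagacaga

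Each of the 3 stretches holds 4 matches to the core. Of 32851 RefSeq promoter windows of 300 bases (250 before and 50 after the start), 20.8% hold at least 1 match to TGACG on either strand and 0.231% hold 4 or more. RefSeq windows were found for 39 of the 43 receptors, 60 in all, of which 16 hold at least 1 match (26.7%). The only receptor windows with 4 or more are those of the 3 NR4A genes. The count of 4 was chosen after the matches in these 3 were seen, so it does not test whether they stand out. The whole element TGACGTCA, which contains the core, was in 1.79% of all windows and in none of these 3. A match is a description of the letters and not of binding. No binding was measured.

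Nr4a2 read 5.60, 5.62 and 5.46 in control and 6.06, 5.91 and 5.69 in miR-143DOX mice. Every miR-143DOX mouse lay above every control mouse, with miR-143DOX replicate 3 the closest. The means were 5.89 ± 0.19 and 5.56 ± 0.09 (SD, n = 3 each). The difference was 0.33 (0.02 to 0.64, 1.26-fold), with an unadjusted limma p of 0.0383. Of 13 probe sets 11 lay above 0, but only 6 of the 13 lay above the background value. Those 6 gave 0.06 to 0.38, with the brightest at 0.06. The median over probe sets gave 0.73. The probe set in the middle by mean level lay at 5.21, below the background value, with a difference of 0.83. The unadjusted limma p was 0.0126 without miR-143DOX replicate 3 and from 0.0516 to 0.155 without any other single array.

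Nr4a1 read 8.77, 7.70 and 7.68 in control and 8.13, 8.48 and 9.07 in miR-143DOX mice. Control replicate 1 stood well above the other controls and above all miR-143DOX mice but replicate 3, so the groups overlapped. The means were 8.56 ± 0.47 and 8.05 ± 0.63 (SD, n = 3 each). The difference of 0.51 (-0.12 to 1.15, 1.43-fold) was the highest among the receptors, with an unadjusted limma p of 0.105. All 8 probe sets of Nr4a1 lay above 0, from 0.01 to 0.80, and all were above background. Of 34 tested receptors with 8 or more probe sets, 2 (Nr4a1 and Nr3c2) had all on one side, against 2.58% of all such genes.

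The Nr4a1 value hung on single mice. It was 0.88 without control replicate 1, 0.34 and 0.33 without control replicates 2 and 3, and 0.26 without miR-143DOX replicate 3. Nr4a3 read 5.03, 4.95 and 5.07 against 5.02, 5.34 and 5.04, at 0.12 (-0.19 to 0.42), with 4 of 10 probe sets above the background value and the gene mean below it.

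Other immediate early genes, which collagenase isolation of hepatocytes is known to switch on, were on the same side. Of 22 on the list 19 lay above 0 (52.4% of all genes), at a median of 0.17, and the 5 with an unadjusted limma p under 0.05 were all on the higher side (1.38% of all genes). Leaving out control replicate 1 gave a median of 0.29, and leaving out control replicate 3 gave 0.10. The list mean was 7.69 to 7.93 in control and 8.05 to 8.17 in miR-143DOX arrays. The 5 had groups that did not overlap, higher in miR-143DOX (3.40% of all genes). They were the stress genes Gadd45g at 0.92 (standard error 0.29) and Gadd45a at 0.62 (0.18), the transcription factor gene Atf3 at 0.55 (0.22), Dusp1 at 0.46 (0.19) and Fosl2 at 0.34 (0.15). Fos differed by 0.36 (standard error 0.17), Egr1 by 0.23 (0.18) and Jun by 0.08 (0.14), and each overlapped between the groups. This list too was written with earlier results of these data known. The part of cell isolation in the NR4A values was not tested.

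**Figure D3:**
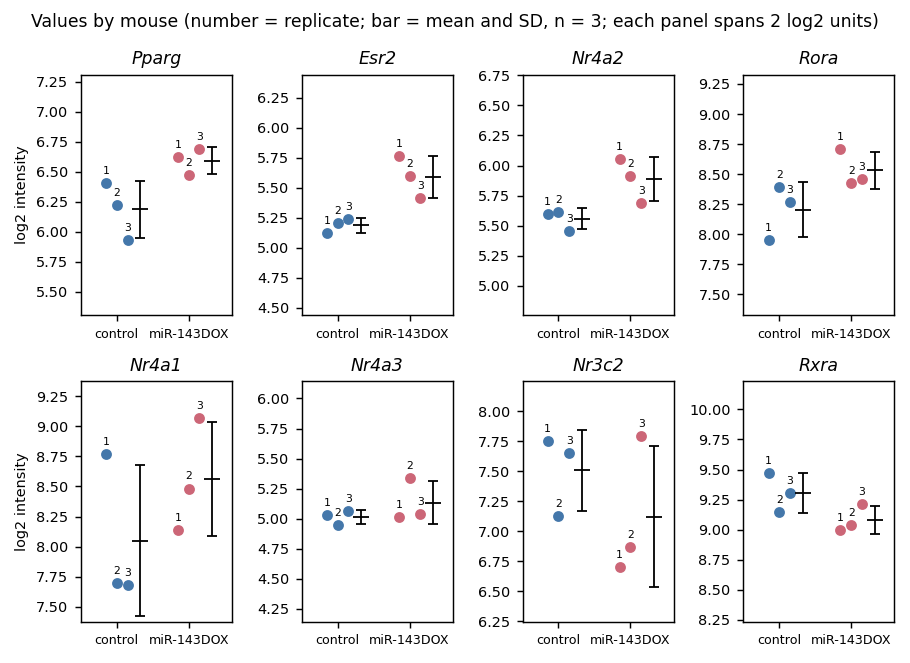
Log2 intensity in each mouse (y axis, each panel spans 2 log2 units) of the tested receptors with non-overlapping groups (Pparg, Esr2, Nr4a2, Rora), the other NR4A genes, and Nr3c2 and Rxra, with control in blue, miR-143DOX in red and mean ± SD beside them (n = 3). Control replicate 1 stands apart from the other controls for Nr4a1, and miR-143DOX replicate 3 from its group for Nr3c2.

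Rora, the fourth tested receptor with separate groups, encodes RORalpha, which binds the same DNA element as the Rev-erb repressors and activates the clock gene Arntl. It read 7.95, 8.40 and 8.27 in control and 8.71, 8.43 and 8.46 in miR-143DOX mice. The highest control lay just below the lowest miR-143DOX mouse. The means were 8.53 ± 0.15 and 8.21 ± 0.23 (SD, n = 3 each). The difference was 0.33 (-0.01 to 0.66, 1.25-fold), with an unadjusted limma p of 0.0573. Unlike Pparg, Esr2 and Nr4a2, its brightest probe set gave nearly the mean value, 0.37, and 14 of 15 probe sets lay above 0. It was 0.20 without control replicate 1.

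**Figure D4:**
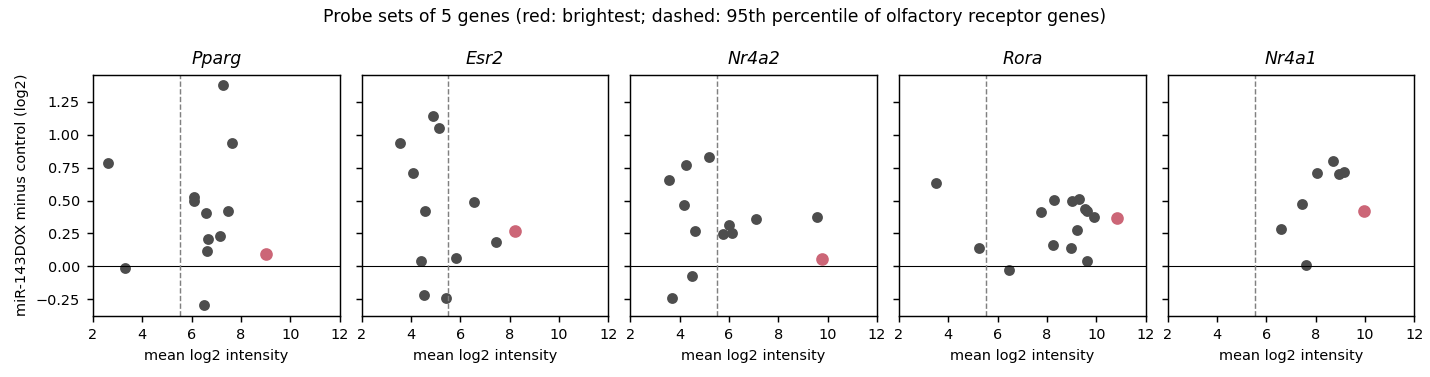
Difference between miR-143DOX and control (y axis, log2) against mean log2 intensity (x axis) for each probe set of 5 receptor genes, with the brightest in red and the background value (95th percentile of olfactory receptor genes, 5.52) dashed. The brightest probe set lies near 0 for Pparg (0.10) and Nr4a2 (0.06) and at 0.37 for Rora.

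As Pparg has RefSeq start sites whose windows hold the core AGGTCA that nuclear receptors bind, the 60 bases before those start sites are shown, with the core in capitals. They lie at chr6:115361084-115361143 and chr6:115362289-115362348, both on the plus strand of GRCm38.p6.
Pparg, first window: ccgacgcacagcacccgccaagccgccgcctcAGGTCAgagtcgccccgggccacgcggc
Pparg, second window: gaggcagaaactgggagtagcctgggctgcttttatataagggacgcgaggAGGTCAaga

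AGGTCA, on either strand, was in 16.3% of all windows and in 11 of the 60 receptor windows (18.3%), those of Pparg, Nr1h4, Rxra, Rxrg, Rara, Rarg, Thrb, Nr5a2, Nr6a1 and Nr0b1. The longer AAAGGTCA, the NR4A monomer site that contains AGGTCA, was in 1.51% of all windows and in those of Rxra and Rxrg. The clock motifs CACGTG (E-box) and TTATGTAA (D-box) were in 7.15% and 0.938% of all windows and in 6 and 0 of the 60, and the EGR motif GCGGGGGCG in 2.91% of all windows and in 4 of the 60, those of Nr4a1, Nr2f6, Ppard and Vdr.

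Receptors for thyroid hormone, retinoids and vitamin D were split, with 3 of 6 above 0 and 3 below. Thrb, the thyroid hormone receptor form that dominates in liver, read 7.84, 8.08 and 7.90 against 8.15, 7.97 and 8.23 and differed by 0.18 (-0.12 to 0.48). The groups overlapped through control replicate 2. Rarb, a retinoic acid receptor, lay at -0.23 (-0.58 to 0.13) with 10 of 11 probe sets below 0, while Rara, Rarg, Thra and Vdr lay between -0.15 and 0.08.

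The remaining classes moved little. All 5 tested orphan receptors of the testicular and COUP-TF class and Nr2e3 lay just below 0, from -0.08 to -0.04 (Nr2c1, Nr2c2, Nr2f2, Nr2f6 and Nr2e3). Nr2f2, COUP-TFII, is known from venous endothelium and stellate cells as well as hepatocytes. It read 8.08, 7.77 and 8.01 against 7.55, 8.03 and 8.08, so that miR-143DOX replicate 1 was the lowest. The 3 estrogen-related receptors, which act on mitochondrial genes, lay above 0, Esrra at 0.07 (-0.28 to 0.43), Esrrg at 0.13 (-0.36 to 0.61) and Esrrb at 0.02 (-0.27 to 0.30). The brightest probe set of Esrrb gave 0.51, with an unadjusted limma p of 0.036. Read by the brightest probe set, Esrrb and Rorb were the receptors at an unadjusted limma p under 0.05, and Pparg, Esr2 and Nr4a2 were not. In that reading 455 of 15312 genes were under the same threshold. Rorb gave 0.88 by its brightest probe set. Its mean over probe sets, too dim to be tested, differed by -0.005.

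Levels of several receptors were correlated with the clock state of the arrays, though none passed adjustment. The level of the clock output gene Dbp minus that of Arntl, which run in opposite phase, was 4.52, 0.26 and 0.85 log2 units in control and -1.25, 0.90 and 3.00 in miR-143DOX mice. The arrays at the ends were control replicate 1 and miR-143DOX replicate 1. Over the 6 arrays, 7 of 38 receptors had a Pearson r of at least 0.8 in size with this value, against 7.24% of all genes. The values of the groups overlapped. Sampling times of the mice are not given in the labels.

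Ppara was higher where the clock value was higher, with r = 0.85 (exact permutation p = 0.0347, adjusted over the 38 receptors 0.273) and Spearman rho of 0.83 (exact permutation p = 0.0583, adjusted 0.369). Nr1h4 gave r = 0.84 (exact permutation p = 0.0319, adjusted 0.273) and rho = 0.94 (exact p = 0.0167, adjusted 0.211). Hnf4a ran the other way, with r = -0.93 (exact permutation p = 0.00833, adjusted 0.273) and rho = -0.89 (exact p = 0.0333, adjusted 0.253). Without the 2 farthest arrays r was 0.96 for Ppara, 0.98 for Nr1h4 and -0.94 for Hnf4a. Groups of 3 mice are too small for a value within each.

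The other 4 of the 7 were Nr2f2 (r = 0.81, exact permutation p = 0.0347), Rxra (0.83, exact p = 0.0403), Nr3c2 (0.82, exact p = 0.0431) and Rora (-0.80, exact p = 0.0556). Their Spearman rho was 1 (exact permutation p = 0.00278), 0.71 (exact p = 0.136), 0.77 (exact p = 0.103) and -0.49 (exact p = 0.356), with adjusted Pearson p of 0.273, 0.273, 0.273 and 0.302 and adjusted Spearman p of 0.106, 0.517, 0.517 and 0.724. Without the 2 farthest arrays r was 0.69 for Nr2f2, 0.25 for Rxra, 0.67 for Nr3c2 and 0.50 for Rora, so the relation of Rxra and Rora with the clock value rested on those arrays. With both arrays left out of the comparison of groups, the difference was 0.11 for Rora, -0.05 for Nr3c2, 0.37 for Ppara and 0.39 for Nr1i3. In the same setting Nr4a1 stood at 1.09 and Pparg at 0.50, and Nr4a1 had the smallest adjusted p of a receptor in limma, 0.198. The setting left 2 mice in each group and took out control replicate 1, the high control of Nr4a1 (8.77, against 7.70 and 7.68). Without that array alone the Nr4a1 difference was 0.88. With the clock value as a covariate over all 6 arrays, the difference of Nr4a1 was 0.76 (unadjusted limma p of 0.000237, adjusted 0.698). In that fit Pparg stood at 0.45 and Esr2 at 0.35, still at an unadjusted p under 0.05, while Nr4a2 at 0.30 had an unadjusted limma p of 0.0731. Nr3c2 stood at -0.21, Rora at 0.25 and Ppara at 0.21.

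The coregulators that receptors recruit showed little difference as a list. Of 23 tested, 8 lay above 0 and 15 below, at a median of -0.02 (52.4% of all genes lay above 0). The groups did not overlap for 2, both lower (3.73% of all genes). An unadjusted limma p under 0.05 was met by 1 gene, on the lower side (1.68% of all genes). That gene was Ppargc1a, the coactivator PGC-1alpha of fasting and mitochondrial genes, at 7.64, 6.95 and 6.78 in control and 6.89, 6.45 and 6.41 in miR-143DOX mice. Control replicate 1 was the highest, and the groups overlapped through miR-143DOX replicate 1. The difference was -0.54 (-1.01 to -0.07). Med1, the Mediator subunit that binds receptors, lay lower in every miR-143DOX mouse at -0.23 (-0.52 to 0.05). The p160 coactivators Ncoa1, Ncoa2 and Ncoa3 and the corepressor Ncor1 lay within 0.04 of 0.

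Target genes of the receptors were read from lists written for each receptor. The lists were written with earlier results of these data known, so their counts beside all genes are a description and not a test. Of 35 tested targets of PPARalpha, 29 lay above 0 (52.4% of all genes), at a median of 0.21, and the 7 with an unadjusted limma p under 0.05 were all on the higher side (1.38% of all genes). The median was 0.099 without miR-143DOX replicate 1. Ppara itself differed by 0.08. Their list mean was 9.01 to 9.35 in control and 9.26 to 9.56 in miR-143DOX arrays. The pantetheinase gene Vnn1 lay at 1.10 (standard error 0.18) and the peroxisomal thiolase gene Acaa1b at 0.54 (standard error 0.14), both without overlap. The fatty acid hydroxylase gene Cyp4a14 lay at 1.14 (standard error 0.30) and the fatty acid transporter gene Cd36, a known PPARgamma target as well, at 1.03 (standard error 0.33), both with overlap. Below 0 lay 6 of the 35, among them Angptl4 at -0.41 (standard error 0.22), also with overlap.

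Of 10 tested thyroid hormone receptor targets, 9 lay above 0 (52.4% of all genes), at a median of 0.22. Omitting miR-143DOX replicate 1 gave 0.12, omitting control replicate 3 gave 0.13, and omitting the pair of arrays with extreme clock values gave 0.12. Their mean level was 9.82 to 9.86 in control and 9.98 to 10.08 in miR-143DOX arrays. The malic enzyme gene Me1 was the only one at an unadjusted p under 0.05 (1.38% of all genes on the higher side), at 0.65 (0.06 to 1.25), with the groups overlapping. Of these 10 genes, 4 are on another list here. All 7 tested retinoic acid targets lay above 0, at a median of 0.25, which was -0.01 without miR-143DOX replicate 1. Tgm2, the transglutaminase, differed by 0.34 (0.03 to 0.65) and did not overlap between the groups, and the retinoic acid hydroxylase genes Cyp26a1 and Cyp26b1 lay at 0.31 and 0.26 with wide intervals (-0.80 to 1.41 and -0.29 to 0.81).

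Of 20 glucocorticoid receptor targets 15 lay below 0, at a median of -0.14, and 3 had an unadjusted limma p under 0.05, of which 2 lay on the lower side (3.06% of all genes in either direction, 1.68% lower). Leaving out miR-143DOX replicate 1 took the median to -0.30, and leaving out replicate 3 of that group took it to -0.088. Tsc22d3, the leucine zipper gene GILZ, differed by -0.66 (-1.31 to -0.01), the serine dehydratase Sds by -0.34 (standard error 0.15) and the phosphatase gene Dusp1, also an immediate early gene, by 0.46 (0.04 to 0.88). The list mean was 10.06 to 10.10 in control and 9.63 to 10.29 in miR-143DOX arrays, the highest and lowest of all 6 falling within miR-143DOX.

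Targets of the remaining receptors were centred near 0. HNF4alpha targets had a median of 0.00 (10 of 20 above 0), FXR targets -0.05 (6 of 13), LXR targets -0.04 (6 of 15) and targets of CAR and PXR 0.06 (16 of 28). At an unadjusted limma p under 0.05 stood 1 of 20, 1 of 13 and 1 of 28 genes of the HNF4alpha, FXR, and CAR and PXR lists. Of the 15 on the LXR list it was 1 higher and 1 lower (3.06% of all genes in either direction). They were the coagulation factor gene F7 at -0.40 (-0.71 to -0.10), the fetuin gene Fetub at -0.50 (-0.97 to -0.04) and the intestinal-type P450 gene Cyp2c55 at 0.60 (0.21 to 0.98). The pair of the LXR list was Fasn at 0.51 and Cyp7a1 at -0.95. Cyp7a1, the rate-limiting enzyme of bile acid synthesis, read 7.98 in miR-143DOX replicate 1 and 10.04 to 10.47 in the other 5 mice. Of the other genes that SHP lowers, Cyp8b1 lay at -0.06 (-0.41 to 0.29) and the bile acid importer Slc10a1 at 0.09 (-0.21 to 0.38). In limma, 0 genes of these lists met 5% FDR. Of 16 clock genes 8 lay above 0, at a median of 0.02, with Nr1d1 and Nr1d2 at 0.33 and -0.21 (standard errors 0.18 and 0.21).

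**Figure D5:**
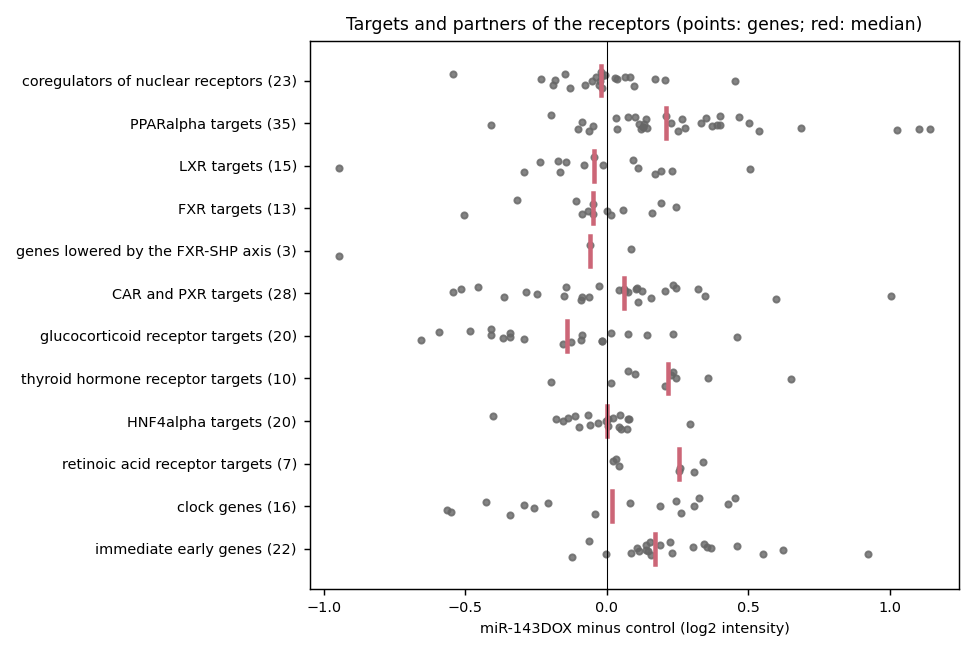
Difference between miR-143DOX and control (x axis, log2 intensity) for each tested gene of 12 lists of receptor targets, coregulators, clock and immediate early genes, with the number tested in parentheses and the list's median in red. The medians of PPARalpha, thyroid hormone receptor and retinoic acid receptor targets lie at 0.21, 0.22 and 0.25, and that of glucocorticoid receptor targets at -0.14.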

How the data were processed

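Total RNA of hepatocytes from 6 mice was read on Affymetrix arrays, 1 per mouse. The authors deposited values on a log scale, taken as log2 because they ran from 1.60 to 15.2. Partek is named per the submitters' processing notes. The background correction, normalization and summary behind the deposited values are not given in the sources used here. Quantile normalization was applied, because the spread between arrays was 0.127 at the 75th percentile and 0.135 at the 95th. Of 234873 probe sets, 212097 carried 1 gene symbol and were averaged to 20416 genes, and 15312 were left after the dim filter. Probe sets differ in affinity, so levels were not compared between genes. Precision is limited by there being 1 array per mouse and 3 mice per group.

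The comparison used limma 3.58.1 (R 4.3.3; group only, two-sided, Benjamini-Hochberg over all genes tested). All p-values not called exact are limma's. Lists held 275 genes, of which 255 were found as written, 5 under an older or newer symbol, and 15 were not used. Lists were described by counts and medians, with no test. Values per mouse were given for receptors at an unadjusted p under 0.05 or with separate groups and for 10 receptors known in liver. Up to 4 genes per list were named by smallest p; other list genes, and values by mouse of Nr4a1, Nr4a3, Nr3c2, Thrb and Nr2f2, were chosen after their values were seen. The members and lists were chosen with earlier results of these data known, and the clock correlations, the count of probe sets on one side and the count of 4 or more motif matches were chosen with values in view. The fit was run on simulated data with independent noise and changes of 2-fold or more. That run cannot show how the fit reads smaller changes or deviations that genes of an array share. Alternatives are given in the closing section.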

Additional observations from a re-analysis of the deposited data

How the results depend on the processing

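The count of 0 receptors and 0 genes past 5% FDR in limma held in all 17 alternatives for the receptors, and in 16 for all genes. Without both arrays at the extremes of the clock value 1 gene passed (Dcpp1, no receptor). Of the 38 receptors, 12 kept their sign in every alternative that tested them. The sign turned for 13 of 37 with the median over probe sets and for 11 of 38 with the brightest probe set. Receptors at an unadjusted limma p under 0.05 numbered from 1 to 3 with single arrays left out, against 299 to 1127 of 15312 genes. The receptors numbered 1 without control replicate 3 (Esr2), against 370 of 15312 genes. Without miR-143DOX replicate 1 they numbered 1 (Nr4a1), against 316 of 15312. All genes at that threshold numbered 469, against 1021 with array weights, 299 without miR-143DOX replicate 2 and 1127 when replicate 3 of that group was left out.

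The deviations of the mice do not settle whether the same replicate numbers mark pairs. Same-numbered deviations correlated at 0.107, 0.0468 and 0.296, and those of unlike numbers at -0.257 to 0.151. Control replicates 1 and 3 correlated best with the miR-143DOX mouse of the same number. Control replicate 2 correlated best with miR-143DOX replicate 1 (0.151). With the replicate block, 0 genes passed 5% FDR and 734 were at an unadjusted p under 0.05, and Esr2, Nr4a2 and Pparg were again the 3 receptors.

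List medians moved by more than the spread between mice in 34 of 306 readings, none of which had a call. Over single arrays left out, medians ran from -0.014 to 0.085 for the receptors, 0.011 to 0.056 for CAR and PXR targets, -0.076 to 0.0077 for FXR targets, -0.057 to 0.033 for HNF4alpha targets, -0.10 to 0.037 for LXR targets, -0.097 to 0.042 for cholangiocyte markers, -0.091 to 0.027 for coregulators, 0.096 to 0.29 for immediate early genes, 0.056 to 0.12 for lymphocyte and neutrophil markers, -0.0093 to 0.30 for retinoic acid receptor targets and 0.12 to 0.25 for thyroid hormone receptor targets. With the brightest probe set they were 0.012 for coregulators, 0.045 for FXR targets, 0.11 for CAR and PXR targets, 0.11 for hepatocyte markers and -0.12 for cholangiocyte markers. With the median over probe sets they were 0.015 for coregulators and 0.0032 for FXR targets. With array weights they were -0.071 for coregulators and 0.16 for thyroid hormone receptor targets, which stood at 0.18 with the clock covariate and at 0.12 without both clock extremes. Cholangiocyte markers stood at -0.18 without both clock extremes and 0.10 with the lowest 40% of genes left out.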
